A study of Mus musculus with 34 samples.

Results

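The genes described here are the inhibitors, cyclins and kinases that govern the step from G1 into S phase: the CDK inhibitors Cdkn1a, Cdkn1b, Cdkn1c and Cdkn2c, the D cyclins Ccnd1, Ccnd2 and Ccnd3, the kinases Cdk4 and Cdk6, and their substrate Rb1. They were taken by gene name from a table of RNA-seq read counts, which held all 10 of them among 13108 rows. The RNA came from HSCs (hematopoietic stem cells) sorted as LSK CD48- CD150+ cells from C57BL/6 mice, with 100 cells per library and 2 libraries, A and B, per mouse. Ythdf2 CKO mice (YTHDF2 KO in the labels) carried a floxed Ythdf2 allele removed by Vav-iCre, which acts in the whole blood lineage from fetal life onward. Ythdf2 CTL mice (wild type in the labels) were, by the study's methods, Ythdf2 fl/fl littermates without Cre, so the floxed allele was shared by both genotypes. There were 4 young Ythdf2 CTL, 4 young Ythdf2 CKO, 4 Ythdf2 CTL mice of 1 year and 5 Ythdf2 CKO mice of 1 year. Values are CPM, counts relative to the scaled total of a mouse (TMM) after its libraries were added, and mice were the replicates.

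In quiescent cells the retinoblastoma protein, the product of Rb1, holds E2F factors in check. D cyclins bound to CDK4 or CDK6 phosphorylate it and so release the genes of S phase. Proteins of the INK4 family, such as p18 from Cdkn2c, bind CDK4 and CDK6 and block their pairing with D cyclins, whereas the Cip/Kip proteins p21 (Cdkn1a), p27 (Cdkn1b) and p57 (Cdkn1c) bind whole cyclin-CDK complexes. In HSCs p57 is known for its part in keeping cells out of cycle, p18 for limiting self-renewal divisions, and CDK6 for the speed at which quiescent cells leave G0. These are protein functions, and the data here are transcript levels.

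Short coding stretches show what sets these families apart. Each D cyclin opens with the codons of an LXCXE motif, the peptide by which it docks on the retinoblastoma protein, and a search of the coding sequences found it in the D cyclins and in none of the other 7 genes. The stretches below run 5′ to 3′ on the coding strand of GRCm38 from the start codon, with the motif's codons in capitals.

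Ccnd1, chr7:144939652-144939693, minus strand: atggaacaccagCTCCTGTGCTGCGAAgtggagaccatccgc
Ccnd2, chr6:127150738-127150773, minus strand: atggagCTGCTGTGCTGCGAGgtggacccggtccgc
Ccnd3, chr17:47593655-47593690, plus strand: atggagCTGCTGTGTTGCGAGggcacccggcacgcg

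The Cip/Kip genes share a CRXLFG motif that contacts the cyclin, found in the coding sequence of Cdkn1a, Cdkn1b and Cdkn1c and not in Cdkn2c, an INK4 gene that acts on the kinase instead. Its codons are again in capitals.

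Cdkn1a, chr17:29098441-29098488, plus strand: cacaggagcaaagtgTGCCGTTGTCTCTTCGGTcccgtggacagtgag
Cdkn1b, chr6:134920989-134921036, plus strand: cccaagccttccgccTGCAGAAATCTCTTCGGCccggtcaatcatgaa
Cdkn1c, chr7:143460582-143460629, minus strand: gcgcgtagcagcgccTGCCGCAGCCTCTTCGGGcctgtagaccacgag

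Related genes differed along their coding sequences. Over their aligned coding bases, Ccnd2 and Ccnd3 were 68.5% identical, Cdk4 and Cdk6 68.4%, and Cdkn1a and Cdkn1c 66.0%, and the longest identical run in any of the pairs compared was 20 bases. Ccnd1 shares 1100 exon bases with LTO1 on the other strand, Cdk4 641 with Tspan31, Rb1 488 with Rcbtb2 and 408 with Lpar6, Ccnd2 368 with 9330179D12Rik and Ccnd3 361 with Bysl. The use of strand in counting is not given in the sources used here, so reads from those bases cannot be told apart between the partners.

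The 33 libraries used held between 1859784 and 7784627 counts, and the 17 mice between 2218618 and 10125624, the lowest being 1-year Ythdf2 CTL mouse 99, whose library B had 187034 counts and was left out. Ythdf2 itself was at 93.4 to 123 CPM in young Ythdf2 CTL and 50.3 to 60.3 CPM in young Ythdf2 CKO mice. At 1 year the mouse labelled Ythdf2 CKO 121 had 188 CPM, the highest of all mice, and the mouse labelled Ythdf2 CTL 124 had 70.5 CPM, below all Ythdf2 CKO mice of 1 year, so both went against their labels, and the fitted differences by genotype at 1 year are also given without them. All 8 HSC markers were detected in every group, and their sum was at 1244 to 1478 CPM in young Ythdf2 CTL and 1618 to 1997 CPM in young Ythdf2 CKO mice. This gap rested on Ly6a, at 254 to 340.0 against 417 to 907 CPM, since the other 7 summed to 974 to 1221 against 1045 to 1353 CPM, and Mecom had the lower mean in Ythdf2 CKO mice (72.8 and 52.7 CPM). At 1 year the sums overlapped, at 1246 to 2568 and 1652 to 2222 CPM. The 5 megakaryocyte and platelet markers in the table summed to 499 to 863 CPM in young Ythdf2 CTL, 970 to 3092 in young Ythdf2 CKO, 337 to 523 in 1-year Ythdf2 CTL and 531 to 1959 in 1-year Ythdf2 CKO mice, with Pf4 the most abundant. The sum thus moved with genotype at both ages, but not every gene did: in young mice Gp9 ran the other way, at 75.9 to 97.7 CPM in Ythdf2 CTL and 43.7 to 76.1 CPM in Ythdf2 CKO mice, and Itga2b overlapped, at 52.6 to 89.3 and 52.8 to 130.7 CPM. Gp1bb also overlapped in young mice, at 43.9 to 94.0 and 63.3 to 171 CPM. At 1 year only Pf4 separated the genotypes, at 179 to 286 against 294 to 1382 CPM, and Itga2b, Gp9, Gp1bb and Ppbp overlapped. The part of Ly6a and the platelet markers in the results below was not tested. The 3 lymphoid markers in the table, nearly all Cd79b, also moved with genotype in young mice, at 78.6 to 88.9 against 89.8 to 152 CPM. Erythroid genes (6) summed to 50.2 to 135 CPM and granulocyte and monocyte genes (7) to 399 to 903 CPM, nearly all Lyz2, with overlap of the genotypes in both sums at each age, and Il7r and Csf1r were below 2.4 CPM in every mouse. Mpo, the myeloperoxidase gene, separated the genotypes at 1 year, at 8.27 to 80.8 CPM in Ythdf2 CTL (the highest in mouse 114, the other 3 at most 9.08) and 0 to 6.23 CPM in Ythdf2 CKO mice, and its part in the 1-year results was not tested. Cd48, the marker the gate leaves out, was at 53.9 to 87.1 CPM in young Ythdf2 CTL, 98.0 to 106 in young Ythdf2 CKO, 0.629 to 28.2 in 1-year Ythdf2 CTL and 1.86 to 19.5 CPM in 1-year Ythdf2 CKO mice. It moved with age and, in young mice, with genotype, and its part in the results was not tested. Young Ythdf2 CKO mouse 3 stood apart, with the lowest proliferation sum of the young mice (3453 CPM, the other 7 at 5105 to 6713) and the highest platelet sum (3092 CPM). At 1 year Ythdf2 CTL mouse 114 stood apart, with the lowest proliferation sum (3051 CPM) and the lowest Slamf1 (28.5 CPM) of all 17 mice. Its Flt3 was at 103 CPM, where every other mouse had at most 40.1 CPM. Y-linked genes summed to 197 to 330.5 CPM in 3 of 4 young Ythdf2 CTL mice and in 1 mouse of each other group, and to at most 0.186 CPM in the rest, so sex was not balanced. The sample descriptions carry one code for all young samples and another for all 1-year samples, with no word on what it marks, so age and whatever the code marks cannot be told apart. In libraries of 100 sorted cells, fewer cells of a kind and less RNA per cell cannot be told apart either.

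No gene of the 10 differed by genotype at an adjusted p below 0.05 (edgeR quasi-likelihood test over mice, Benjamini-Hochberg over all genes tested), in young or in 1-year mice. Over all genes the same test called 0.174% in young mice and 0% in 1-year mice, so there was little background to read this against. At an unadjusted p below 0.05 the count was 2 of 10 in young mice (814 of 11526 genes tested) and 3 of 10 in 1-year mice (1208 of 11961). The levels of single mice did separate by genotype for some genes. Every young Ythdf2 CKO mouse had more Ccnd1 than every young Ythdf2 CTL mouse, and at 1 year every Ythdf2 CKO mouse had less Cdkn1c and more Cdk6 than every Ythdf2 CTL mouse. Such a gap between genotypes was seen for 4.77% of all genes in young mice and 3.48% in 1-year mice. More of the 10 differed between young and 1-year mice, where age and the sample code cannot be told apart. In Ythdf2 CTL mice, 5 of the 10 rose by 1 year (Cdkn1a, Cdkn1c, Ccnd1, Ccnd2 and Ccnd3) and none fell, where 14.8% of all genes were called, 6.7% as higher and 8.07% as lower. In Ythdf2 CKO mice, 3 of the 10 rose (Cdkn1a, Cdkn2c and Ccnd3) and none fell, where 16.6% of all genes were called, 7.21% as higher and 9.34% as lower.

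Levels spanned a wide range within the set. Per kb of each gene's longest coding transcript, Cdk4 was the most abundant in young Ythdf2 CTL HSCs at 465 ± 31.3 CPM per kb (SD, n = 4), followed by Ccnd3 at 144 ± 11.5 and Ccnd2 at 47.7 ± 9.11. Cdkn1c came next at 14.5 ± 2.51 and was the most abundant of the inhibitors. Rb1 was at 7.79 ± 1.01, Cdkn2c at 5.69 ± 0.982, Cdkn1b at 5.13 ± 2.19, Cdkn1a at 3.43 ± 1.70, Ccnd1 at 2.99 ± 1.46 and Cdk6 at 2.22 ± 0.491 CPM per kb. From Cdkn2c down to Cdk6, neighbours in this order differed by less than the sum of their SDs. Cdk4 held the first place and Cdk6 the last in all 4 groups, also when the union of all annotated exons served as length. The widest spread over the 17 mice was that of Cdkn1a, 41.9-fold between the lowest and the highest mouse, and the narrowest that of Cdk4, 1.94-fold.

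Cdkn1a (chr17:29090976-29100727, plus strand) encodes p21, a target of p53. The young Ythdf2 CTL mice 1 to 4 had 7.70, 2.35, 10.9 and 7.57 CPM, and the young Ythdf2 CKO mice 1 to 4 had 13.8, 8.96, 22.6 and 18.0 CPM. The groups overlapped only through Ythdf2 CKO mouse 2. The difference was 1.16 ± 0.47 on the log2 scale (SE), with an unadjusted p of 0.0268 and an adjusted p of 0.609 (edgeR). At 1 year, Ythdf2 CTL mice 65, 99, 114 and 124 had 14.8, 39.6, 41.2 and 49.5 CPM, and Ythdf2 CKO mice 78, 81, 94, 121 and 122 had 55.1, 28.9, 78.8, 24.6 and 98.5 CPM. The groups overlapped widely, with a log2 difference of 0.67 ± 0.44 (adjusted p = 0.646, edgeR) and of 1.05 ± 0.43 without mice 121 and 124 (adjusted p = 0.365). It was 0.39 without Ythdf2 CKO mouse 122 and likewise 0.39 without Ythdf2 CTL mouse 65.

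With age, every 1-year mouse had more Cdkn1a than every young mouse of its genotype. The log2 rise was 2.33 ± 0.49 in Ythdf2 CTL mice (adjusted p = 0.00446, edgeR), a mean of 7.13 ± 3.54 CPM (SD, n = 4) against 36.3 ± 14.95 CPM (n = 4). The rise in Ythdf2 CKO mice was 1.85 ± 0.46 (adjusted p = 0.00928, edgeR), 15.9 ± 5.82 CPM (n = 4) against 57.2 ± 31.8 CPM (n = 5). Both calls held when any 1 of the 17 mice was left out. Cdkn1a had the largest fitted rise of the 10 genes in both genotypes. The 250 bases before its first RefSeq start (chr17:29090729-29090978, plus strand, RefSeq sequence on GRCm38.p6) are shown because they hold CATGNNNNNNCATG, the spacing of the paired CATG cores of p53 elements, beginning 48 bases before the start. The cores are in capitals.

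Cdkn1a: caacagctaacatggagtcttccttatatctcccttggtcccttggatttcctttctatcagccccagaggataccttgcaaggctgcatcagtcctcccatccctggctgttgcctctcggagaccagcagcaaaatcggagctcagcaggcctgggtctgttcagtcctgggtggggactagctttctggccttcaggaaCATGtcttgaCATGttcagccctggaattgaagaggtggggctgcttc

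The same letters, searched on both strands, occurred in 0.49% of 32851 windows of that length before RefSeq starts, and in none of the windows of Cdkn1b, Cdkn2c, Ccnd3, Cdk4 and Cdk6, the other genes of the set matched in that table. A match of letters is a description and was not set against binding data.

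Cdkn1b (chr6:134920401-134925513, plus strand) encodes p27, which is held high in resting cells mainly through protein stability. It was at 16.3 to 38.1 CPM in young Ythdf2 CTL, 13.1 to 35.6 in young Ythdf2 CKO, 13.7 to 56.5 in 1-year Ythdf2 CTL and 12.3 to 41.3 CPM in 1-year Ythdf2 CKO mice. All 4 ranges overlapped, and no contrast called it. The log2 differences by genotype were -0.17 ± 0.37 in young and -0.39 ± 0.42 in 1-year mice, the latter -0.25 ± 0.39 without mice 121 and 124.

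Cdkn1c (chr7:143458339-143461050, minus strand) encodes p57. In young mice it was even: Ythdf2 CTL mice 1 to 4 had 24.9, 26.4, 34.6 and 24.3 CPM and Ythdf2 CKO mice 1 to 4 had 22.7, 30.5, 26.6 and 26.0 CPM, a log2 difference of -0.05 ± 0.25. At 1 year, Ythdf2 CTL mice 65, 99, 114 and 124 had 54.5, 108, 58.9 and 69.4 CPM, whereas Ythdf2 CKO mice 78, 81, 94, 121 and 122 had 35.0, 19.1, 29.6, 48.3 and 22.7 CPM. The genotypes did not overlap at 1 year, and the mouse labelled Ythdf2 CKO 121, in which Ythdf2 was highest, was the Ythdf2 CKO mouse nearest to the Ythdf2 CTL mice. The log2 difference was -1.22 ± 0.31, a ratio of 0.428, with an unadjusted p of 0.00151 and an adjusted p of 0.297 (edgeR). An exact permutation test over the mice gave a two-sided p of 0.0159, the smallest that 4 against 5 mice allow and 1 of 20 such tests, not adjusted. Groups that do not overlap always give the smallest p, so the value only restates the gap. Of the other tests, Cdkn2c and Ccnd2 at 1 year gave 0.0476 each, and Cdkn1a and Cdk4 in young mice 0.0571 each. Besides the smallest values of Ccnd1 and Cdk6 given below, the rest gave 0.238 or more. Without mice 121 and 124 the difference was -1.47 ± 0.31 (adjusted p = 0.0753). With any 1 mouse left out (9 fits) it lay between -1.44 and -0.98, with adjusted p values of 0.124 to 0.653 (edgeR). The highest Ythdf2 CTL value, that of mouse 99, rests on library A alone. Library B of mouse 99, left out for its low total, had 16.04 CPM (3 counts, 95% Poisson interval 3.31 to 46.9), below the lowest Ythdf2 CTL mouse. The difference was called at 1 year by a likelihood ratio test over mice (adjusted p = 0.0376), the same test with each library as a replicate (0.0285), and DESeq2 (0.0299). The other 6 alternatives over all mice of 1 year gave no call.

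The age contrast shows the same levels from the other side. Cdkn1c rose by 1.39 ± 0.29 on the log2 scale in Ythdf2 CTL mice (adjusted p = 0.00434, edgeR), from 27.5 ± 4.78 CPM (SD, n = 4) to 72.6 ± 24.2 CPM (n = 4), and every 1-year mouse was above every young one. Ythdf2 CKO mice had 26.5 ± 3.19 CPM (n = 4) when young and 30.9 ± 11.5 CPM (n = 5) at 1 year, a log2 difference of 0.22 ± 0.27 that was not called (adjusted p = 0.626). The difference between these age effects, tested as the interaction of genotype and age, was -1.17 ± 0.40 with an unadjusted p of 0.0077 and an adjusted p of 0.942 (edgeR). Over all genes 0% were called in that test, with 588 of 12352 at an unadjusted p below 0.05. The libraries of single mice diverged most in 1-year Ythdf2 CTL mice, where mouse 124 had 123 CPM in library A and 25.3 in library B, and mouse 114 had 23.1 and 94.9 CPM. At the level of libraries the genotypes therefore overlapped.

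Cdkn2c (chr4:109660876-109667189, minus strand) encodes the INK4 protein p18. Young Ythdf2 CTL mice 1 to 4 had 16.9, 14.5, 11.03 and 13.8 CPM, and young Ythdf2 CKO mice 1 to 4 had 13.4, 7.31, 32.9 and 9.17 CPM, so that mouse 3 alone stood above the Ythdf2 CTL mice. At 1 year, Ythdf2 CTL mice 65, 99, 114 and 124 had 32.0, 12.8, 41.2 and 6.17 CPM and Ythdf2 CKO mice 78, 81, 94, 121 and 122 had 48.2, 32.5, 41.1, 43.6 and 55.8 CPM. The log2 difference at 1 year was 0.94 ± 0.44 (unadjusted p = 0.0536, adjusted p = 0.50), and 0.61 ± 0.35 without mice 121 and 124. With age it rose in Ythdf2 CKO mice by 1.495 ± 0.465 on the log2 scale (adjusted p = 0.0313, edgeR), although Ythdf2 CKO mouse 3 among the young, at 32.9 CPM, kept the groups from separating. That call was lost when young Ythdf2 CKO mouse 1, 2 or 4 or 1-year Ythdf2 CKO mouse 78 or 122 was left out, with adjusted p values of 0.0557 to 0.11. The rise in Ythdf2 CTL mice was 0.72 ± 0.48 (adjusted p = 0.326).

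**Figure D1:**
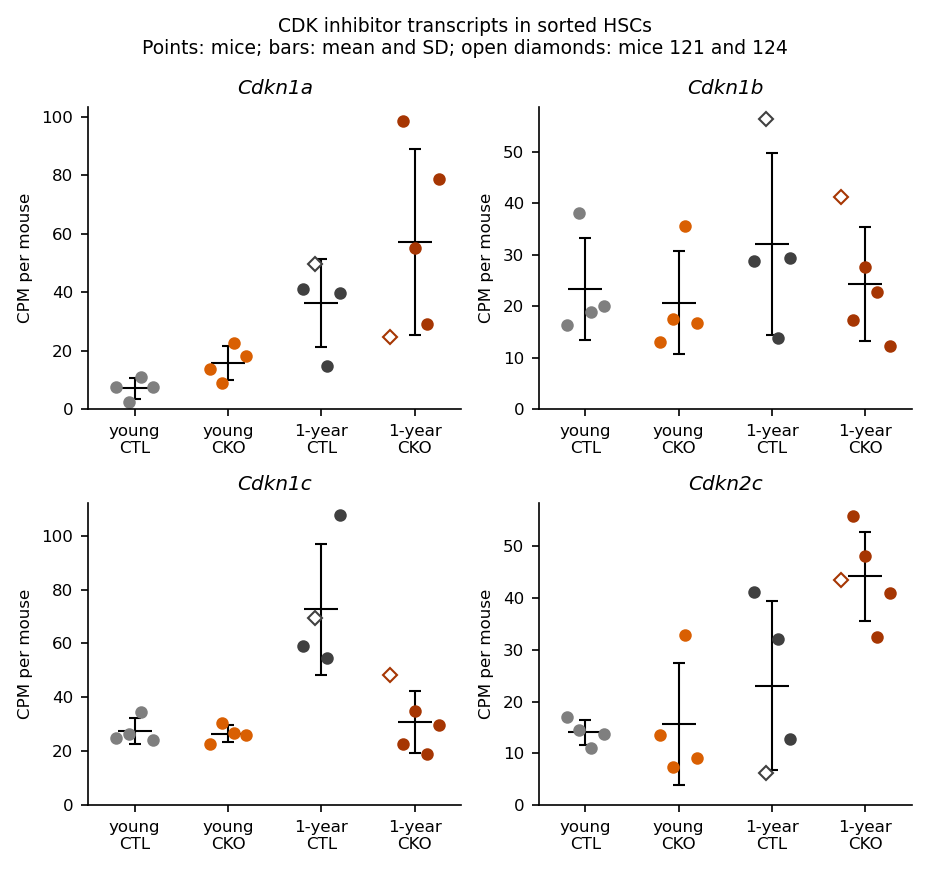
CPM of the 4 CDK inhibitor genes in each mouse (y axis) for the 4 groups (x axis), with the mean and SD of each group, and the mice labelled 121 and 124 as open diamonds. Cdkn1c lies at 54.5 to 108 CPM in 1-year Ythdf2 CTL mice and at 19.1 to 48.3 CPM in 1-year Ythdf2 CKO mice, and Cdkn1a is higher in 1-year than in young mice of either genotype.

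Ccnd1 (chr7:144929931-144939925, minus strand) encodes cyclin D1, the least abundant D cyclin of these cells. Young Ythdf2 CTL mice 1 to 4 had 8.58, 10.8, 6.39 and 18.9 CPM, whereas young Ythdf2 CKO mice 1 to 4 had 21.8, 32.7, 24.7 and 31.6 CPM. The groups did not overlap, with means of 11.2 ± 5.47 and 27.7 ± 5.31 CPM (SD, n = 4 each). The log2 difference was 1.31 ± 0.36, a ratio of 2.48, with an unadjusted p of 0.00213 and an adjusted p of 0.284 (edgeR). The exact permutation test gave a two-sided p of 0.0286, the smallest that 4 against 4 mice allow, which only restates that the groups did not overlap. Of 10 alternatives over all young mice, 1 called it, the likelihood ratio test with each library as a replicate (adjusted p = 0.0332). The other 9 gave no call, with adjusted p values from 0.0546 (DESeq2) to 0.804 (all 17 mice in one fit), and with Y-linked expression as a covariate the difference was 0.99 ± 0.35 (0.60).

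At 1 year, Ccnd1 was split within Ythdf2 CTL mice, with 52.6, 56.9, 18.6 and 11.6 CPM in mice 65, 99, 114 and 124. Ythdf2 CKO mice 78, 81, 94, 121 and 122 had 58.5, 48.2, 45.5, 42.9 and 63.1 CPM, a log2 difference of 0.57 ± 0.41 (adjusted p = 0.684, edgeR). It was 0.34 ± 0.34 without mice 121 and 124 (adjusted p = 0.769), 0.27 without mouse 124 alone, 0.36 without mouse 114 and 0.89 without mouse 99. The rise with age was 1.63 ± 0.42 in Ythdf2 CTL mice (adjusted p = 0.0134, edgeR), although the groups overlapped. It was not called without 1-year Ythdf2 CTL mouse 99 (adjusted p = 0.0539) or young Ythdf2 CTL mouse 3 (0.0516). In Ythdf2 CKO mice every 1-year mouse was above every young one, and the log2 difference of 0.90 ± 0.39 was not called (adjusted p = 0.119, edgeR). It was called in the 3 fits with libraries as replicates (adjusted p = 0.0291 to 0.0453) and in none of the other 5 alternatives over all mice.

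Ccnd2 (chr6:127125162-127152193, minus strand) encodes cyclin D2. It was at 246 to 371 CPM in young Ythdf2 CTL and 236 to 323 CPM in young Ythdf2 CKO mice. At 1 year, Ythdf2 CTL mice 65, 99, 114 and 124 had 651, 472, 486 and 613 CPM, and Ythdf2 CKO mice 78, 81, 94, 121 and 122 had 268, 299, 349, 599 and 375 CPM. The genotypes overlapped through the mouse labelled Ythdf2 CKO 121 alone. The log2 difference was -0.55 ± 0.22 over all mice (unadjusted p = 0.0272, adjusted p = 0.435, edgeR), -0.77 without mouse 121 (adjusted p = 0.151) and -0.74 ± 0.18 without mice 121 and 124 (adjusted p = 0.112). Of 9 alternatives over all 1-year mice, 1 called it, the likelihood ratio test with each library as a replicate (adjusted p = 0.0442). With age, Ccnd2 rose in Ythdf2 CTL mice by 0.88 ± 0.21 (adjusted p = 0.0098, edgeR), from 302 ± 57.7 to 556 ± 89.8 CPM (SD, n = 4 each), and the groups did not overlap. In Ythdf2 CKO mice the difference of 0.51 ± 0.20 was not called (adjusted p = 0.0918), and it was 0.28 ± 0.17 without mice 121 and 124. It was called in the 3 fits with libraries as replicates (adjusted p = 0.00721 to 0.0112) and in none of the other 5 alternatives over all mice.

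Ccnd3 (chr17:47505051-47599691, plus strand) encodes cyclin D3. The genotypes were alike in range at both ages: 270.1 to 327 against 237 to 348 CPM in young mice and 358 to 671 against 456 to 555 CPM at 1 year. The log2 differences by genotype were 0.04 ± 0.15 and 0.08 ± 0.18, the latter 0.27 ± 0.16 without mice 121 and 124 (adjusted p = 0.542, edgeR). With age it rose in both, by 0.67 ± 0.17 in Ythdf2 CTL mice (adjusted p = 0.0138, edgeR) and 0.69 ± 0.17 in Ythdf2 CKO mice (adjusted p = 0.00692), and no 1-year mouse fell into the range of the young mice of its genotype. The call in Ythdf2 CTL mice was lost without young mouse 3 (adjusted p = 0.0574). The interaction was 0.03 ± 0.24.

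Cdk4 (chr10:127063534-127067920, plus strand) encodes the partner kinase of the D cyclins with the highest transcript level here. It was at 905 to 1048 CPM in young Ythdf2 CTL and 731 to 907 CPM in young Ythdf2 CKO mice, with the ranges overlapping only at mouse 1 of the former and mouse 2 of the latter. The log2 difference was -0.18 ± 0.12 (adjusted p = 0.841, edgeR). At 1 year it was at 541 to 859 CPM in Ythdf2 CTL and 718 to 868 CPM in Ythdf2 CKO mice, a log2 difference of 0.06 ± 0.16 that was 0.07 ± 0.17 without mice 121 and 124. In Ythdf2 CTL mice every 1-year mouse was below every young one, but the log2 difference of -0.36 ± 0.14 did not pass (adjusted p = 0.0945). It passed with DESeq2 (0.0429) and with Y-linked expression as a covariate (0.0395), and in none of the other 6 alternatives over all mice.

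Cdk6 (chr5:3341485-3531008, plus strand) encodes the other kinase that D cyclins activate. Young Ythdf2 CTL mice 1 to 4 had 31.5, 19.7, 21.9 and 29.3 CPM and young Ythdf2 CKO mice 1 to 4 had 31.6, 33.1, 38.6 and 18.0 CPM. Mouse 4 of the latter was the lowest of the 8, and the log2 difference was 0.25 ± 0.28. At 1 year, Ythdf2 CTL mice 65, 99, 114 and 124 had 23.3, 13.2, 22.9 and 16.8 CPM, and Ythdf2 CKO mice 78, 81, 94, 121 and 122 had 45.8, 35.8, 35.4, 51.1 and 36.1 CPM. The genotypes did not overlap, with means of 19.1 ± 4.90 (SD, n = 4) and 40.8 ± 7.17 CPM (n = 5). The log2 difference was 1.10 ± 0.28, a ratio of 2.14, with an unadjusted p of 0.00152 and an adjusted p of 0.297 (edgeR). The exact permutation test again gave its smallest two-sided p of 0.0159, as it does for any groups without overlap. Here the mouse labelled Ythdf2 CKO 121 was the highest, farthest from the Ythdf2 CTL mice, and without mice 121 and 124 the difference was 0.93 ± 0.29 (adjusted p = 0.227). It was called with each library as a replicate (adjusted p = 0.0436), by the likelihood ratio test over libraries (0.00838) and by DESeq2 (0.0278), and by none of the other 6 alternatives over all 1-year mice. By age it differed by -0.41 ± 0.29 in Ythdf2 CTL and 0.43 ± 0.27 in Ythdf2 CKO mice, neither called. The interaction was 0.84 ± 0.40 (unadjusted p = 0.0453, adjusted p = 0.999).

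Rb1 (chr14:73183673-73325822, minus strand) was at 33.2 to 43.2 CPM in young Ythdf2 CTL, 25.4 to 57.8 in young Ythdf2 CKO, 22.0 to 38.8 in 1-year Ythdf2 CTL and 14.5 to 32.3 CPM in 1-year Ythdf2 CKO mice. The genotypes overlapped at each age and the ages within each genotype, and no contrast called it. The log2 differences were 0.05 ± 0.26 and -0.05 ± 0.32 by genotype (the latter 0.08 ± 0.30 without mice 121 and 124), and -0.41 ± 0.30 and -0.51 ± 0.29 by age.

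**Figure D2:**
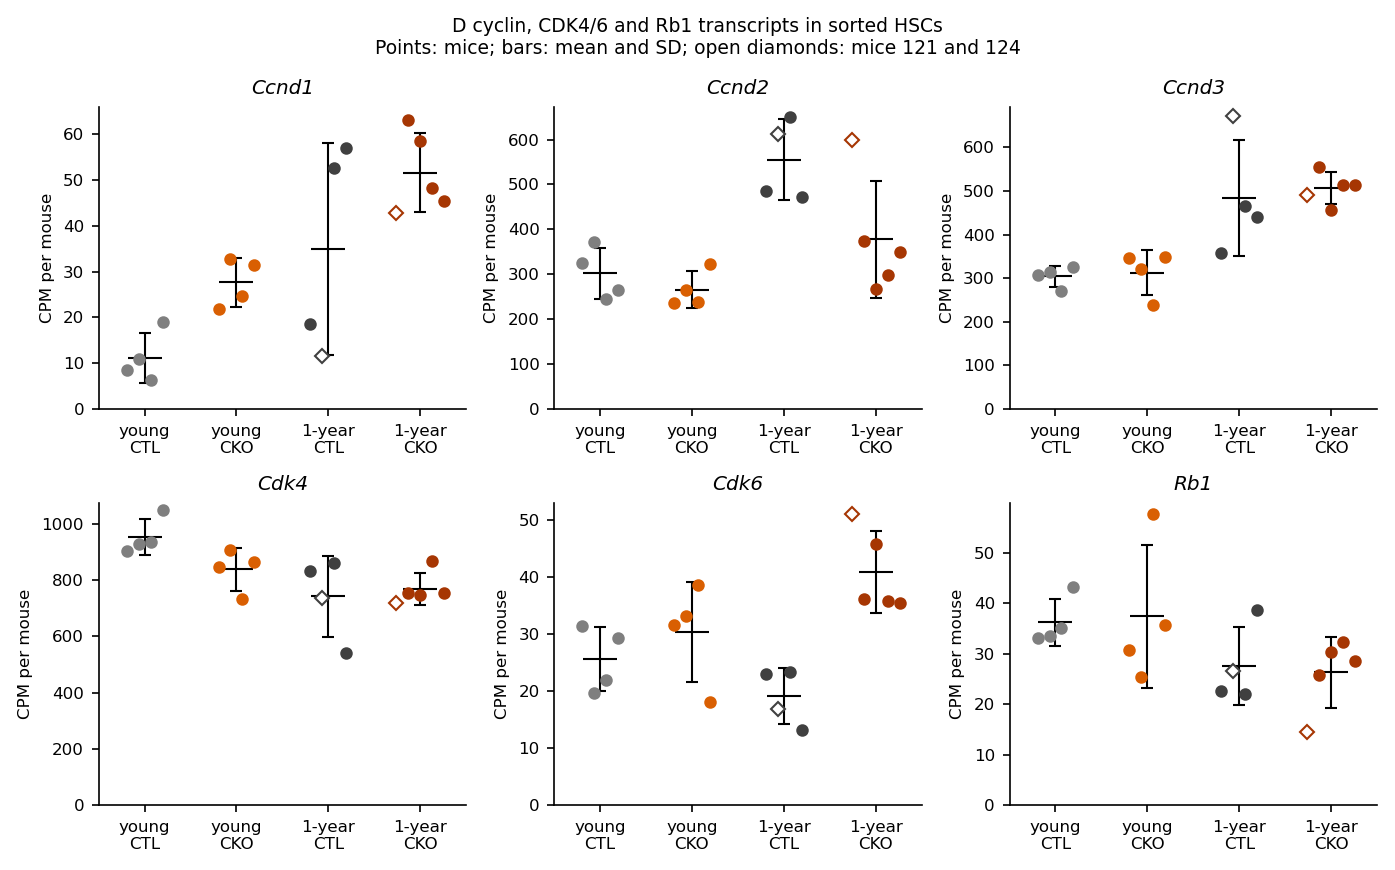
CPM of the D cyclins, Cdk4, Cdk6 and Rb1 in each mouse (y axis, from 0) for the 4 groups (x axis), with the mean and SD of each group, and the mice labelled 121 and 124 as open diamonds. Ccnd1 is higher in all young Ythdf2 CKO mice than in young Ythdf2 CTL mice, Cdk6 is higher in all 1-year Ythdf2 CKO mice than in 1-year Ythdf2 CTL mice, and Ccnd3 is higher at 1 year in both genotypes.

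Set side by side, the median of the 10 fitted log2 differences by genotype was 0.05 in young and 0.07 in 1-year mice, beside 0.00 over all genes at both ages. At an unadjusted p below 0.05 were Ccnd1 and Cdkn1a in young mice, and Cdkn1c, Cdk6 and Ccnd2 in 1-year mice. The log2 differences of Ccnd1 and Cdkn1a had the same sign at 1 year, at 0.57 and 0.67, neither called. They were 0.34 (unadjusted p = 0.332) and 1.05 (0.0296) without mice 121 and 124. No interaction term of the 10 passed, so no test showed that these differences depended on age. The median log2 difference by age was 0.70 in Ythdf2 CTL and 0.47 in Ythdf2 CKO mice, beside 0.11 and 0.07 over all genes. The groups of young and 1-year mice did not overlap for 5 of the 10 in Ythdf2 CTL mice (17.1% of all genes) and 3 of the 10 in Ythdf2 CKO mice (20.4%). These comparisons share groups, so their values are given side by side only.

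**Figure D3:**
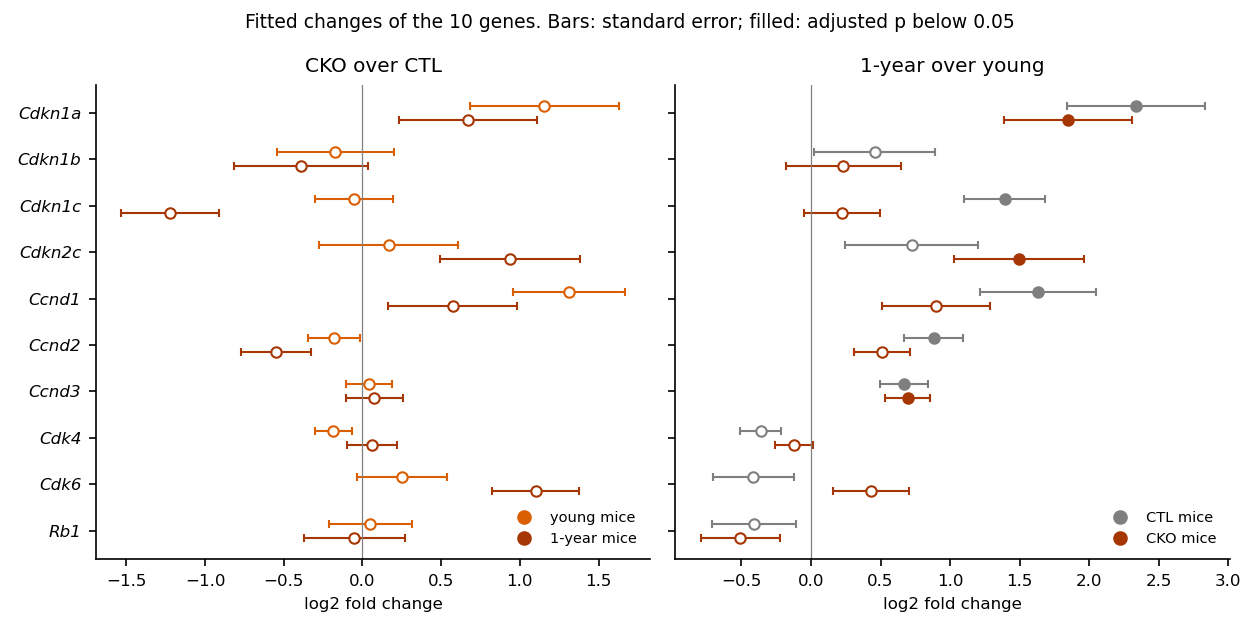
Fitted log2 fold changes (x axis) with standard errors for the 10 genes, for Ythdf2 CKO over Ythdf2 CTL at each age (left) and for 1-year over young mice in each genotype (right), with filled points for an adjusted p below 0.05. No point on the left is filled. On the right, 5 are filled for Ythdf2 CTL and 3 for Ythdf2 CKO mice, all above 0.

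Ratios between genes of the same mouse do not depend on the scaling of its libraries, and they are given as descriptions. The log2 ratio of Cdk6 to Cdk4 CPM was -5.25 ± 0.31 in young Ythdf2 CTL (SD, n = 4), -4.84 ± 0.56 in young Ythdf2 CKO (n = 4), -5.30 ± 0.13 in 1-year Ythdf2 CTL (n = 4) and -4.25 ± 0.32 in 1-year Ythdf2 CKO mice (n = 5). At 1 year the genotypes did not overlap, at -5.46 to -5.18 against -4.60 to -3.81. Cdk4 thus remained far above Cdk6 in every mouse, and the gap was smaller in 1-year Ythdf2 CKO mice.

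Of the D cyclin signal per kb, Ccnd3 made up 74.1% ± 2.80 in young Ythdf2 CTL, 74.9% ± 3.15 in young Ythdf2 CKO, 69.7% ± 4.64 in 1-year Ythdf2 CTL and 76.7% ± 4.61 in 1-year Ythdf2 CKO mice. Ccnd2 made up 24.4% ± 3.16, 21.4% ± 2.61, 27.3% ± 3.77 and 18.8% ± 5.21, in the same order. Among 1-year Ythdf2 CKO mice, the mouse labelled 121 had a Ccnd2 share of 28.0%, within the 23.2 to 30.5% of the Ythdf2 CTL mice, and the other 4 had 15.5 to 17.7%. Ccnd1 made up 1.52% ± 0.682, 3.78% ± 0.686, 3.00% ± 2.00 and 4.45% ± 0.909, and in young mice its shares did not overlap, at 1.01 to 2.51% against 2.82 to 4.32%. With exon-union lengths, the Ccnd3 share was 50.4, 51.05, 44.9 and 53.5%, the Ccnd2 share 46.2, 40.5, 48.8 and 36.2%, and the Ccnd1 share 3.41, 8.45, 6.24 and 10.3%, in the same order. With those lengths Ccnd2 was above Ccnd3 in the mean of 1-year Ythdf2 CTL mice, so the shares and their order depend on the length used.

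Among the Cip/Kip genes, Cdkn1c made up 62.7% ± 2.96 of the signal per kb in young Ythdf2 CTL, 54.3% ± 9.67 in young Ythdf2 CKO, 61.8% ± 11.4 in 1-year Ythdf2 CTL and 34.4% ± 13.3 in 1-year Ythdf2 CKO mice. In 1-year Ythdf2 CKO mice other than 121 it was 18.9 to 36.1%, and in 121 it was 54.9%, within the 50.2 to 73.9% of the Ythdf2 CTL mice. Cdkn1a held 14.9% ± 6.72, 28.8% ± 7.45, 27.2% ± 7.77 and 53.6% ± 19.2, in the same order. With exon-union lengths the mean shares in 1-year Ythdf2 CKO mice were close, at 43.0% for Cdkn1a and 41.7% for Cdkn1c. The Cip/Kip sum per kb overlapped between genotypes at 1 year, at 62.7 ± 19.0 in Ythdf2 CTL (38.8 to 82.1) and 49.1 ± 12.9 CPM per kb in Ythdf2 CKO mice (28.95 to 63.1). With exon-union lengths the ranges were 33.9 to 70.4 and 22.5 to 42.65, and no test of the sum was made. The log2 ratio of the Cip/Kip sum to the D cyclin sum was -3.09 ± 0.32, -2.92 ± 0.45, -2.41 ± 0.55 and -2.72 ± 0.42, with all 4 ranges overlapping.

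**Figure D4:**
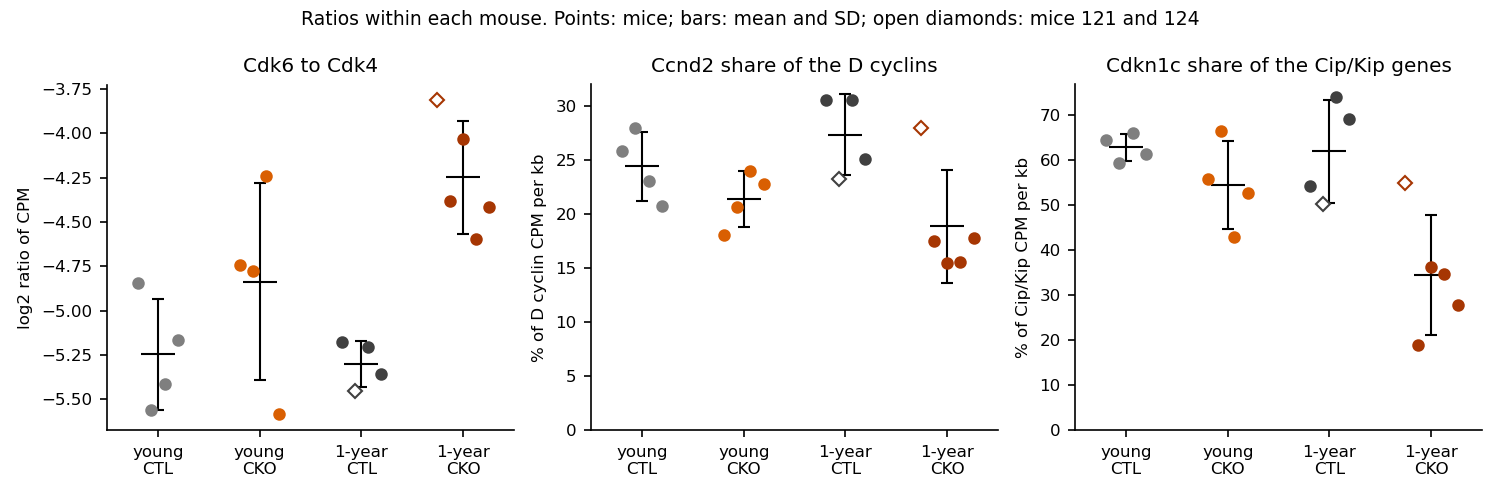
Ratios within each mouse for the 4 groups: the log2 ratio of Cdk6 to Cdk4 CPM (left), the Ccnd2 share of D cyclin CPM per kb (middle) and the Cdkn1c share of Cip/Kip CPM per kb (right), with mean and SD and open diamonds for mice 121 and 124. In the middle and right panels the mouse labelled Ythdf2 CKO 121 sits among the 1-year Ythdf2 CTL mice, and in the left panel it is the highest of all.

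Each library held 100 cells, and the libraries of 1 mouse show how far such a sample varied. For Cdk4, Ccnd2 and Ccnd3 the median difference between libraries A and B of a mouse was 1.16-fold, 1.13-fold and 1.18-fold (16 mice). For Cdkn1a it was 2.08-fold and for Cdk6 1.74-fold, and single pairs reached 14.1-fold and 7.02-fold, the former in young Ythdf2 CKO mouse 2 with 47 counts in library A and 2 in library B. The SD between libraries of a mouse on the log2 scale was larger than that between mice of a group for Cdkn1a (1.02 against 0.75), Cdkn1c (0.68 against 0.38), Cdk6 (0.68 against 0.35), Rb1 (0.64 against 0.39) and Ccnd3 (0.36 against 0.23), was about equal for Cdk4 (0.18 each), and was smaller for Cdkn1b, Cdkn2c, Ccnd1 and Ccnd2. The first SD is of single libraries and the second of values with the libraries of a mouse added, in which library noise is averaged. A larger SD between libraries is thus partly built in and does not rank variation within mice above that between mice. The genes with genotype gaps at 1 year, Cdkn1c and Cdk6, were among those whose libraries varied most.

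**Figure D5:**
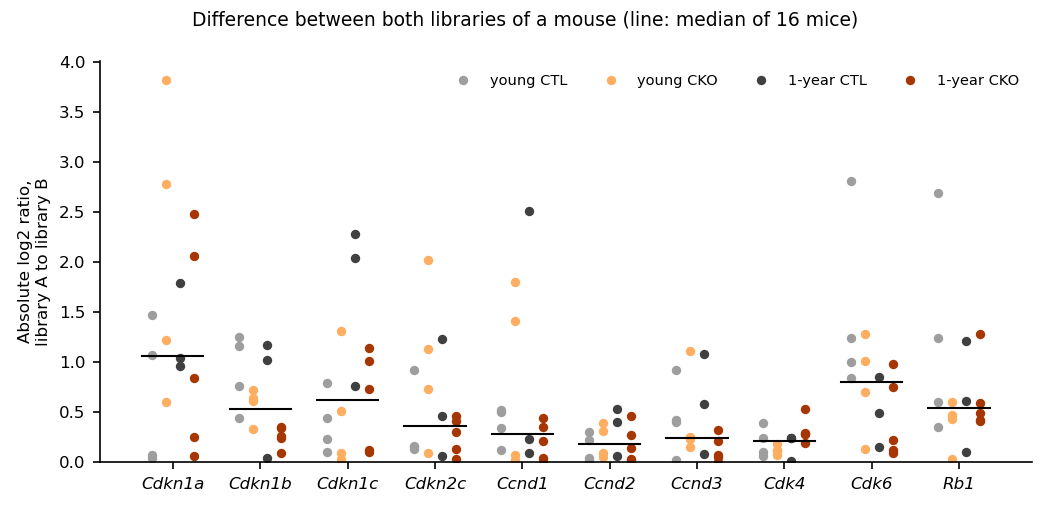
Absolute log2 ratio between libraries A and B of each mouse (y axis) for the 10 genes (x axis), coloured by group, with a line at the median of 16 mice. The medians lie between 0.18 for Ccnd2 and 1.06 for Cdkn1a.

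Other genes of the same step were read from a list of 27, of which 25 were in the table. None passed the test by genotype at either age (edgeR), with 3 of 25 at an unadjusted p below 0.05 in young mice (814 of all 11526 genes) and 5 of 25 in 1-year mice (1208 of 11961). In young mice the fitted difference was negative for 21 of the 25, with a median of -0.13, and for 18 to 22 of the 25 when 1 mouse was left out. The smallest p values were those of Cdk2, the kinase of E cyclins (151 ± 15.6 against 109 ± 30.5 CPM, n = 4 each, log2 difference -0.47 ± 0.20, adjusted p = 0.64), and Skp2, the F-box protein that marks p27 for degradation (35.3 ± 3.29 against 18.7 ± 9.81 CPM, -0.91 ± 0.40, adjusted p = 0.66). Mouse 3 was the lowest of the young Ythdf2 CKO mice for both, at 66.6 CPM of Cdk2 (the other 3 at 107 to 134) and 4.02 CPM of Skp2 (22.7 to 24.5), and without it the differences were -0.29 ± 0.15 and -0.58 ± 0.23 (adjusted p = 0.591 and 0.456). At 1 year 15 were positive and 10 negative, with a median of 0.04. The smallest p values were those of Ccne1, which encodes cyclin E1 (13.7 ± 5.87, n = 4, against 28.2 ± 5.86 CPM, n = 5, log2 difference 1.03 ± 0.36, adjusted p = 0.395), and E2f1 (25.7 ± 9.84 against 45.6 ± 9.08 CPM, 0.83 ± 0.29, adjusted p = 0.398). Without mice 121 and 124 these were 1.03 ± 0.38 and 1.06 ± 0.29 (adjusted p = 0.317 and 0.151), and 14 of the 25 were positive, with 3 at an unadjusted p below 0.05 (1390 of all 12005 genes). With 1 mouse left out, 12 to 15 were positive.

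By age, 6 of the 25 changed in Ythdf2 CTL mice, 5 of them lower, where 14.8% of all genes were called and 8.07% as lower. In Ythdf2 CKO mice it was 8, 5 of them lower, where 16.6% were called and 9.34% as lower. All 3 subunits of the CDK-activating kinase were lower at 1 year in both genotypes. Cdk7, its catalytic subunit, fell by 0.73 on the log2 scale in Ythdf2 CTL (adjusted p = 0.00554, edgeR) and by 0.60 in Ythdf2 CKO mice (0.0102), its cyclin Ccnh by 0.82 (0.00478) and 0.76 (0.00369), and the assembly factor Mnat1 by 0.77 (0.0175) and 0.75 (0.0117). Ccne2, a second E cyclin gene, fell by 1.04 (0.0179) and 0.92 (0.0212), and Cks1b, a CDK subunit, by 0.74 in Ythdf2 CTL mice (0.0264). E2f2 was the gene that rose in Ythdf2 CTL mice, by 1.94 ± 0.65 (0.0491). In Ythdf2 CKO mice the repressor E2f8 rose by 1.38 ± 0.30 (0.00412), from 22.1 ± 5.23 CPM (n = 4) to 57.4 ± 11.1 CPM (n = 5). E2f2, and E2f4, Fbxw7 (both higher) and E2f5 (lower) in Ythdf2 CKO mice, lay outside the naming rule and were named after their values were seen. The calls of Cdk7 and Ccnh in both genotypes, Mnat1 in Ythdf2 CTL and E2f8 in Ythdf2 CKO mice held when any 1 mouse was left out. That of Mnat1 in Ythdf2 CKO mice was lost in 1 of 17 such fits, those of Ccne2 in 2 (Ythdf2 CTL) and 4 (Ythdf2 CKO), that of Cks1b in 4, that of E2f2 in 12, and those of E2f5, E2f4 and Fbxw7 in 5, 6 and 8. E2f2 was also not called without mice 121 and 124 (adjusted p = 0.110).

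Of 26 proliferation genes none passed by genotype (edgeR, 4 at an unadjusted p below 0.05 in young and 0 in 1-year mice, beside 814 of 11526 and 1208 of 11961 of all genes). In young mice 25 of the 26 fitted differences were negative, with a median of -0.23. Without mouse 3 of the young Ythdf2 CKO mice it was 19 of 26 with a median of -0.10, and without any 1 of the other 7 mice 21 to 26. Pcna, the sliding clamp of DNA replication, was at 402 ± 39.0 CPM in young Ythdf2 CTL and 293 ± 32.0 CPM in young Ythdf2 CKO mice (n = 4 each), and the groups did not overlap (log2 difference -0.45 ± 0.13, adjusted p = 0.339). Top2a, a topoisomerase of S to M phase, was at 290 ± 96.2 and 193 ± 23.5 CPM (-0.59 ± 0.20, adjusted p = 0.461). At 1 year 17 were positive and 9 negative, with a median of 0.13, and this tally depended on single mice: it was 12 and 14 with a median of -0.09 without Ythdf2 CTL mouse 114, 13 and 13 without Ythdf2 CKO mouse 81, and 24 and 2 without Ythdf2 CTL mouse 124. The smallest p values were those of Rrm1, a ribonucleotide reductase subunit (0.43 ± 0.21, adjusted p = 0.515), and Top2a (-0.54 ± 0.28, adjusted p = 0.526). Without mice 121 and 124, 25 of the 26 were positive with a median of 0.30, 2 were at an unadjusted p below 0.05 (1390 of all 12005 genes) and none passed, and Top2a was at -0.15 ± 0.22. By age, 3 of the 26 changed in Ythdf2 CTL mice, all lower (8.07% of all genes), and 2 in Ythdf2 CKO mice, 1 higher and 1 lower (7.21% and 9.34%). Pcna fell by 0.94 in Ythdf2 CTL (adjusted p = 0.00123, edgeR) and by 0.50 in Ythdf2 CKO mice (0.025), Tyms, thymidylate synthase, fell by 0.70 (0.0221) and Cdk1, the mitotic kinase, by 0.82 (0.0496) in Ythdf2 CTL mice, and Mcm3, a subunit of the replicative helicase, rose by 0.81 ± 0.21 in Ythdf2 CKO mice (0.0108). Of these calls, that of Pcna in Ythdf2 CTL mice held when any 1 mouse was left out, and the others were lost in 1 (Mcm3), 4 (Tyms), 5 (Pcna in Ythdf2 CKO mice) and 14 (Cdk1) of 17 such fits. Without mice 121 and 124, 5 of the 26 were lower in Ythdf2 CTL mice (1231 of all 12409 genes), Birc5 and Ube2c being added.

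Of 15 genes associated with HSC quiescence none passed by genotype (edgeR, 1 at an unadjusted p below 0.05 in young and 5 in 1-year mice, beside 814 of 11526 and 1208 of 11961 of all genes). Foxo1, a transcription factor of the FoxO family, was at 7.71 ± 2.94 CPM in young Ythdf2 CTL and 14.8 ± 1.40 CPM in young Ythdf2 CKO mice (n = 4 each, log2 difference 0.94 ± 0.39, adjusted p = 0.62), and Mecom, an HSC transcription factor, at 72.8 ± 10.02 and 52.7 ± 16.6 CPM (-0.47 ± 0.23, adjusted p = 0.726). At 1 year, Gata2 was at 269 ± 57.8 CPM (n = 4) and 389.7 ± 52.4 CPM (n = 5; 0.54 ± 0.18, adjusted p = 0.387), and Btg2, an antiproliferative gene, at 62.0 ± 33.2 and 155 ± 99.2 CPM (1.34 ± 0.47, adjusted p = 0.398). The fitted differences were positive for 9 and negative for 6 in young mice (median 0.14), and positive for 6 and negative for 9 at 1 year (median -0.18), so both genes named at 1 year ran against the larger number. With 1 mouse left out, 7 to 11 were positive in young mice (median -0.036 to 0.220) and 6 or 7 at 1 year (median -0.325 to -0.011). Without mice 121 and 124, 10 of the 15 were negative, 13 were at an unadjusted p below 0.05 (1390 of all 12005 genes) and none passed. That count was 6 without mouse 121 alone, 8 without mouse 124 alone and 3 to 6 without 1 of the other 7 mice. In the fit without both mice Gata2 was at 0.47 ± 0.20 and Btg2 at 1.34 ± 0.47 on the log2 scale. By age, 4 of the 15 rose and none fell in Ythdf2 CTL mice (6.7% and 8.07% of all genes), among them Foxo1 by 1.503 ± 0.365 (adjusted p = 0.00973, edgeR), Klf2 by 2.07 ± 0.55 (0.0158) and Txnip by 0.82 ± 0.22 (0.0158). In Ythdf2 CKO mice 3 rose and none fell (7.21% and 9.34% of all genes): Gata2 by 1.05 ± 0.20 (0.00154), Btg2 by 1.73 ± 0.44 (0.00992) and Ndn by 1.06 ± 0.31 (0.0244). The calls of Foxo1, Gata2 and Btg2 held when any 1 mouse was left out, and those of Txnip, Klf2 and Ndn were lost in 1, 2 and 4 of 17 such fits.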

How the data were processed

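The authors sorted 100 HSCs per library, made SMART-Seq2 libraries of polyA RNA, aligned reads to GRCm38 (mm10 in the submitters' processing notes) with HISAT2 and deposited raw counts per gene assigned with Rsubread; versions, annotation and strand setting are not given in the sources used here. Counts were summed per mouse, 1-year Ythdf2 CTL 99 B being left out. Genes passing filterByExpr (minimum count 10, minimum total 15) were fitted with edgeR 4.0.16 (R 4.3.3, TMM, quasi-likelihood, Benjamini-Hochberg), young and 1-year mice apart, with age and interaction from all 17 mice. DESeq2 1.42.0 was an alternative. SEs were derived from the log2 fold change and F. Exact permutation tests (SciPy 1.17.1, two-sided) compared mean log2(CPM + 1). Tests were checked on simulated counts. Coordinates are GENCODE vM21. From the fixed lists, genes past the threshold were named, at most 5 per list and contrast, otherwise the 2 smallest p by genotype at each age. Members and lists were chosen with earlier results of these data known. 19 rows had names turned into dates. Reads carry no molecular identifiers, and precision rests on the depths given above. The values of 1 listed gene are not reported here.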

Additional observations from a re-analysis of the deposited data

Results flagged for a closer look

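In 40 sets of values (10 genes in 4 groups), 1 mouse stood apart from its group by Dixon's test, where chance gives about 2.0: Cdk4 in 1-year Ythdf2 CKO mouse 81, at 868 CPM, with the next mouse at 755 CPM. Library B of 1-year Ythdf2 CTL mouse 99, left out for its 187034 counts, held Rb1 at 118 CPM (22 counts) and Cdk6 at 64.2 CPM (12 counts), above the highest 1-year Ythdf2 CTL mouse (38.8 and 23.3 CPM) beyond their 95% Poisson intervals (73.7 to 178 and 33.1 to 112 CPM, counting error only). Cdkn1c had 3 counts there (16.04 CPM, interval 3.31 to 46.9), below the lowest 1-year Ythdf2 CTL mouse (54.5 CPM), where library A of the same mouse had 108 CPM. Cdk4 and Ccnd3 also had 3 counts each, below all mice, and Ccnd2 was at 337 CPM (259 to 431), below the lowest 1-year Ythdf2 CTL mouse (472 CPM). These values enter no fit, group mean or group range.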

How the results depend on the processing

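Counts of genes called moved by over 1.5 times under many settings. For genotype in young mice (20), they were 47 with each library as a replicate, 67 and 90 by likelihood ratio test over mice and libraries, 77 with DESeq2, 50 with the library letter as replicate block, 9 with the Y-linked covariate, 1 with all 17 mice in one fit and 0 to 18 without 1 mouse. At 1 year (0), they were, in that order, 130, 76 and 420, 104, 40, 0, 5 and 0 to 16, and 40 without mice 121 and 124. The interaction (0) gave 4 and 3 by likelihood ratio test, 15 without both mice and 0 to 2 without 1 mouse. Age in Ythdf2 CTL (1825) gave 896 to 2048 and in Ythdf2 CKO mice (2045) 1183 to 2655 without 1 mouse, and 3112 by likelihood ratio test over libraries. Mouse numbers did not pair young mice (correlations -0.04 to 0.05, and 1 of 4 Ythdf2 CKO mice nearest to its own number), and the replicate block of mouse number changed no call of the 10 genes. Depth limits Cdkn1a most, with 13 counts in young Ythdf2 CTL mouse 2.

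Signs turned only for small, uncalled log2 differences, and the cause was not tested. By genotype in young mice: Cdkn2c -0.091 and Rb1 -0.011 with the replicate block of mouse number, Rb1 -0.125 with the Y-linked covariate, and Ccnd3 -0.007 with libraries as replicates in both edgeR tests. At 1 year: Cdk4 -0.02 in the 3 library fits, and Rb1 0.006 with the Y-linked covariate and 0.084 without mice 121 and 124 (0.049 for its interaction). By age in Ythdf2 CKO mice: Cdkn1b -0.042 without both. Without 1 mouse the ranges that crossed 0 were, in young mice, Cdkn1b -0.56 to 0.18, Cdkn1c -0.127 to 0.077, Cdkn2c -0.49 to 0.40, Ccnd3 -0.014 to 0.156 and Rb1 -0.24 to 0.20. At 1 year they were Cdkn1b -0.67 to 0.02, Ccnd3 -0.051 to 0.259, Cdk4 -0.076 to 0.124 and Rb1 -0.16 to 0.15. For the interaction they were Cdkn1b -0.57 to 0.21, Ccnd3 -0.10 to 0.23 and Rb1 -0.24 to 0.19, and for age in Ythdf2 CKO mice Cdkn1b -0.049 to 0.612 and Cdkn1c -0.002 to 0.345.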
